A study of Mus musculus with 42 samples.

Results

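The collagen genes were the rows of the expression table whose symbol has the form Col, a type number, a and a chain number, with a level of at least 0.5 CPM (reads scaled to a common library size) in 3 or more libraries. They were 42 of the 22186 genes in the table and 42 of its 44 collagen symbols. The 2 left out, Col19a1 and Col6a6, reached 0.3 and 0.408 CPM in their highest library. The members just inside the rule were Col10a1, whose highest library held 8.49 CPM, and Col28a1, whose highest held 1.82 CPM, each above 0.5 CPM in 6 libraries. By type, 11 members were fibrillar, 9 formed networks (6 basement-membrane chains and 3 short-chain collagens) and 22 were of other types, among them 8 fibril-associated (FACIT) chains, 5 beaded-filament chains, 4 transmembrane collagens and 2 multiplexins.

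Collagens are secreted proteins whose chains wind in threes into a triple helix. Fibrillar collagens assemble into the cables of connective tissue, type IV collagens form the sheet of the basement membrane, beaded filaments and FACIT chains link fibrils to their surroundings, and multiplexins such as type XVIII carry sugar chains in basement membranes and release endostatin. Testis cords and ovarian follicles are each wrapped in a basement membrane that the somatic cells inside help to build, whereas fibrillar collagens are best known from fibroblasts and other stromal cells.

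Poly(A) RNA from mouse cells was sequenced in 42 libraries, 3 in each of 14 groups, with 26693847 to 44524376 reads assigned to genes per library. Bisphenol S (BPS), a bisphenol A substitute, or its ethanol vehicle was given for 24 hours, and cells were then left to recover for 24 hours, or 8 hours for primordial germ cell-like cells (PGCLCs). Induced pluripotent stem cells (iPSCs) were exposed at 0, 1, 50 or 100 µM in a dose series. Sertoli cells, granulosa cells and PGCLCs were compared at 1 µM with vehicle, and in a propagation experiment iPSCs given 1 µM or vehicle were sampled and then differentiated without further exposure into derived PGCLCs. The iPSCs were 1 male line made from the fibroblasts of 1 fetus, kept first on fibroblast feeders and later without them. PGCLCs came from that line through aggregates grown with BMP4 and were sorted for 2 surface proteins. Sertoli and granulosa cells were primary cultures pooled from testes or ovaries of juvenile littermates at postnatal day 20. The line carried R26 rtTA and Col1a1 2lox-4F2A, a doxycycline-driven reprogramming cassette placed at the Col1a1 locus, so every iPSC and PGCLC library came from cells with an altered Col1a1 allele. The part of that allele in the Col1a1 values was not tested. The labels give no strain, and no genotype for the somatic cells. The methods describe the 3 samples of a group as replicate flasks, or as replicate batches for PGCLCs, of 1 line or 1 pooled preparation, so p-values measure the spread between flasks or batches and not between animals or lines.

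The labelled cell types were checked against their markers. Sertoli vehicle libraries held Sox9 at 331 to 345 CPM and Wt1 at 372 to 386 CPM, and dose-series vehicle iPSCs held Pou5f1 at 743 to 750.4 CPM. Directly exposed vehicle PGCLCs held the germ cell genes Nanos3 at 10.3 to 11.9 CPM and Ddx4 at 8.85 to 10.3 CPM. The 9 germ cell markers listed summed to 257.5 to 264.6 CPM there and 301.6 to 386.8 CPM in derived vehicle PGCLCs. In vehicle iPSCs they summed to 178.9 to 182.3 CPM (dose series) and 204.8 to 211.4 CPM (propagation), with 8 of 9 at a mean of 0.5 CPM or more. In derived PGCLCs 5 were higher and 2 lower than in propagation iPSCs, beside 35.9% and 37.4% of all genes. Granulosa vehicle libraries held Foxl2 at 138 to 144 CPM, but the follicle-stimulating hormone receptor Fshr was at 0.324 to 0.584 CPM and Amh at 0.649 to 0.799 CPM, so 2 defining markers were near 0 there. The 7 granulosa markers measured, these included, summed to 1677 to 1798 CPM there and 263.7 to 308.9 CPM in vehicle Sertoli cells. In granulosa cells 6 of the 7 had a mean of 0.5 CPM or more. Between the cultures 2 were higher and 4 lower in Sertoli cells, beside 33.7% and 35.9% of all genes.

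Collagen transcripts were a large part of the RNA of both somatic cultures and a trace of that of the pluripotent cells. They took 1.2 ± 0.0386% of all reads (SD, n = 3) in vehicle Sertoli cells and 1.59 ± 0.0288% in vehicle granulosa cells, against 0.0179 ± 0.000288% in vehicle dose-series iPSCs. The vehicle PGCLCs lay between, at 0.0665 ± 0.000358% in the direct exposure experiment and 0.123 ± 0.00817% in the propagation experiment. No 2 of these 5 groups overlapped. The number of collagen genes at 0.5 CPM or more was 19 to 20 per library in dose-series vehicle iPSCs, 32 to 34 in Sertoli cells, 34 to 35 in granulosa cells, 32 to 33 in direct PGCLCs and 33 to 35 in derived PGCLCs. In bulk samples, fewer cells of a type and less RNA per cell cannot be told apart.

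The classes held different parts of this share in each culture. In Sertoli cells network collagens took 0.893 ± 0.0427% of all reads and fibrillar collagens 0.21 ± 0.00313%. Granulosa cells held the 2 classes nearly evenly, at 0.801 ± 0.00567% network and 0.696 ± 0.0187% fibrillar. In iPSCs the largest class was neither of these, because 59.8% of collagen reads in dose-series vehicle libraries and 65.7% in propagation vehicle libraries came from the single gene Col18a1. That share was 23.4% in direct PGCLCs, 20.8% in derived PGCLCs, 3.88% in Sertoli cells and 0.0615% in granulosa cells. The pair Col4a1 and Col4a2 made up 64.2% of collagen reads in Sertoli cells, 44.6% of those in granulosa cells and 10.1% in dose-series iPSCs.

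**Figure D1:**
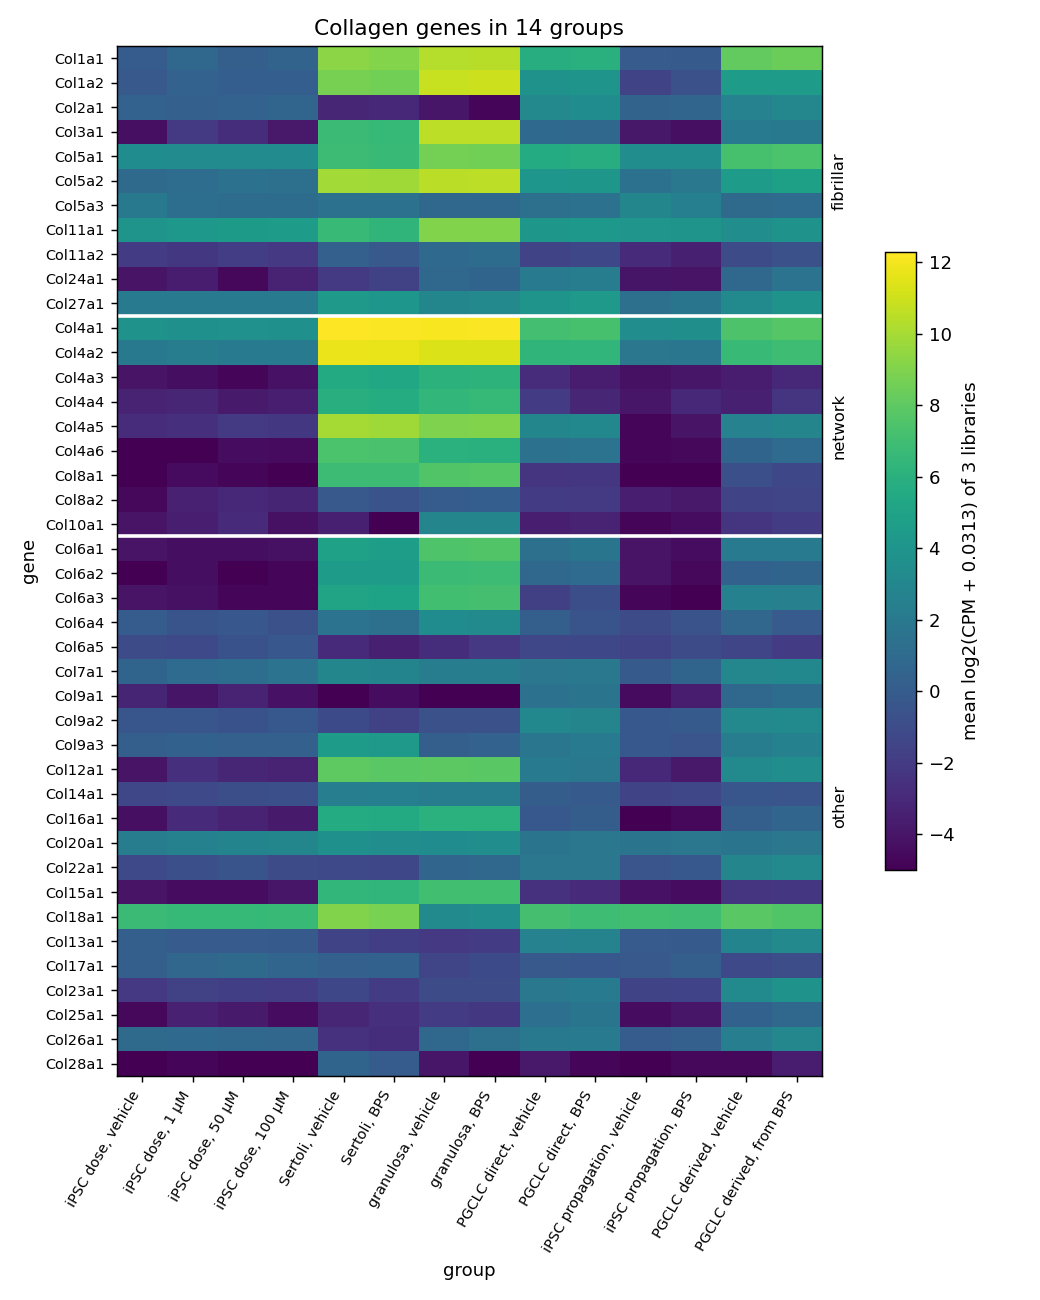
Mean log2(CPM + 0.0313) of each of the 42 collagen genes (rows, grouped by class) in each of the 14 groups (columns, 3 libraries each), as colour. Col4a1 and Col4a2 are brightest in the Sertoli and granulosa columns, Col18a1 is darkest in granulosa cells, and Col10a1 stands out in the granulosa columns.

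The basement-membrane chains were the most abundant collagens of both somatic cultures. Col4a1, which with Col4a2 makes the trimer found in nearly all basement membranes, was at 4729, 5075 and 5198 CPM in the 3 vehicle Sertoli libraries and at 4505, 4484 and 4512 CPM in the vehicle granulosa libraries. Col4a2 was at 3400, 3619 and 3673 CPM and 2605, 2626 and 2631 CPM in the same order. Per kilobase of transcript, Col4a1 was at 756 CPM and Col4a2 at 552 CPM in Sertoli cells, above the third chain in rank there, Col4a5, at 150.1 CPM. In dose-series vehicle iPSCs Col4a1 was at 13, 15.4 and 15.3 CPM and Col4a2 at 3.96, 3.76 and 4.35 CPM, which lay 343-fold and 879.8-fold below the Sertoli level on the log2 scale of the test (differences of 8.42 ± 0.06 and 9.78 ± 0.06, SE; limma adjusted p = 2.94e-25 and 7.86e-26). Sertoli and granulosa cells differed by little in these chains: 0.15 ± 0.06 for Col4a1 (adjusted p = 0.033) and 0.44 ± 0.06 for Col4a2 (adjusted p = 4.60e-06). The Col4a1 difference was not called after rescaling to the upper quartile or when every library was fitted together.

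The minor type IV chains, which replace the major pair in the kidney glomerulus and a few other membranes, were also found in both somatic cultures. Col4a5 was at 914, 981 and 1048 CPM in Sertoli cells and 497, 487 and 504 CPM in granulosa cells, with no overlap. Its partner Col4a6 was at 154, 171 and 181 CPM and 65.6, 66 and 65.4 CPM, a difference of 1.36 ± 0.22 (adjusted p = 2.55e-05). Col4a3 and Col4a4, the other 2 minor chains, had the opposite order in level, but neither difference was called. Col4a3 was at 44.2, 46.5 and 50.7 CPM in Sertoli cells and 68.4, 66.9 and 69.2 CPM in granulosa cells. Col4a4 was at 58.2, 61.8 and 60.5 CPM against 90.7, 83.4 and 91.5 CPM. Col4a6 has a second row in the table under a suffixed name, which reached 158 CPM in its highest library, so reads of this locus may be split and its level is uncertain. No library of the dose-series vehicle group held a Col4a6 read, which allows up to 3 reads or 0.0999 to 0.11 CPM per library.

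The type IV genes lie in pairs that start next to each other on opposite strands. In the RefSeq annotation of GRCm38, Col4a1 and Col4a2 on chromosome 8 overlapped by 85 bases at their starts, Col4a4 and Col4a3 on chromosome 1 overlapped by 114 bases, and Col4a6 and Col4a5 on the X chromosome were 1274 bases apart. The 100 bases before the RefSeq start of each gene of the X pair, 5′ to 3′ on that gene's own strand, are given because they face each other across that gap. They lie before the first exon and outside the GENCODE M21 span of their own gene, as do the other windows printed. Overlap with other genes was not checked. The windows are chrX:141475270-141475369 on the plus strand and chrX:141474096-141474195 on the minus strand.
Col4a5: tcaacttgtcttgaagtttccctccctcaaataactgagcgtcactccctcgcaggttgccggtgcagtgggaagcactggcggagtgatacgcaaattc
Col4a6: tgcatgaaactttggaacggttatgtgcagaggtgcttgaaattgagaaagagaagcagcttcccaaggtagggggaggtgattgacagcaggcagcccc
Neither window held the TATA motif TATAAA on either strand, nor the CCAAT motif, nor the GC-box core GGGCGG. Among 23170 such windows of the build TATAAA was present in 6.28%, CCAAT in 19.9% and GGGCGG in 22.6%, and among the 24 collagen windows in 2, 7 and 10.

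The ratio of partner chains, compared per kilobase, showed that the pairs did not keep 1 proportion across cell types. Col4a1 over Col4a2 was 1.36, 1.37 and 1.38 in the Sertoli vehicle libraries and 1.69, 1.67 and 1.67 in the granulosa libraries, and 3.2, 4.0 and 3.42 in dose-series iPSCs. Col1a1 over Col1a2, the 2 chains of type I collagen, was 1.32, 1.36 and 1.39 in Sertoli cells and 0.652, 0.64 and 0.641 in granulosa cells. It was 3.15, 3.53 and 3.42 in direct PGCLCs and 11.3, 12.4 and 10.8 in derived PGCLCs, where Col1a1 was thus far in excess of its usual partner. No 2 of these 4 groups overlapped in the type I ratio. These PGCLCs carry the cassette at the Col1a1 locus, and the Sertoli and granulosa cultures were not made from that line, so the allele and the cell type cannot be told apart in this contrast. The iPSCs carry it too, and their ratio was 1.06 ± 0.152 (SD, n = 3) in the dose-series vehicle group. The lowest library there held 22 reads of each gene. Col4a3 over Col4a4 was 0.926 ± 0.056 (SD, n = 3) in Sertoli cells and 0.911 ± 0.0328 in granulosa cells.

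**Figure D2:**
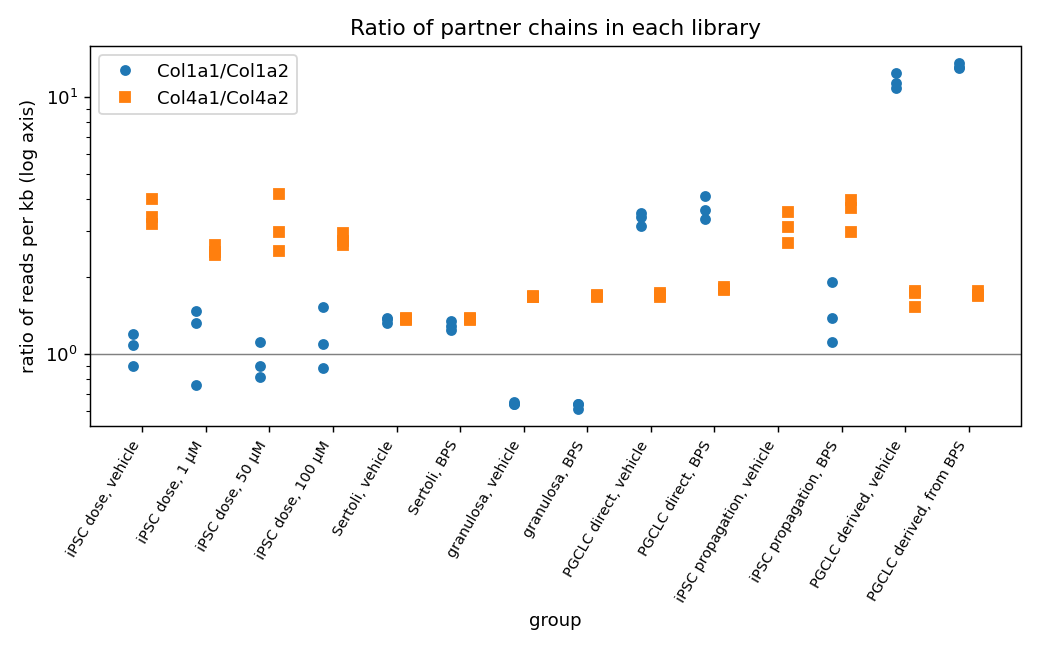
Reads per kilobase of Col1a1 over Col1a2 (circles) and Col4a1 over Col4a2 (squares) in each library of the 14 groups, on a logarithmic axis, drawn where read counts allowed. The type I ratio lies below 1 in granulosa cells and above 10 in derived PGCLCs from vehicle iPSCs, while the type IV ratio lies between 1 and 2 in the somatic cultures.

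Fibrillar collagens set the granulosa cultures apart. Col1a2 was at 1757, 1862 and 1887 CPM in the vehicle granulosa libraries and 446, 419 and 403 CPM in the Sertoli libraries. Col3a1, the type III chain of pliable connective tissue, was at 1423, 1542 and 1528 CPM and 128, 102 and 97.8 CPM, a difference of -3.79 ± 0.47 (adjusted p = 7.29e-07). Col11a1, which controls fibril width in cartilage and elsewhere, was at 526, 505 and 512 CPM and 94.6, 109 and 99.9 CPM. Each of these genes was higher in every granulosa library than in any Sertoli library. Of the 42 members, 26 were called between the cultures (12 higher and 14 lower in Sertoli cells), beside 69.6% of all genes tested (33.7% higher, 35.9% lower), so that a call between these cell types was the common case. By class, 10 of 11 fibrillar members were called, 7 of them lower in Sertoli cells, against 5 of 9 network members, 1 of them lower. Further fibrillar differences were -2.85 for Col24a1, a fibril chain of bone, -2.12 for Col1a2, -1.80 for Col5a1, -1.04 for Col1a1 and -0.61 for Col5a2, and Col27a1 was higher in Sertoli cells by 1.36.

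Granulosa cultures also held a collagen that was near 0 elsewhere. Col10a1, the short-chain collagen known from hypertrophic cartilage, was at 6.95, 6.67 and 8.02 CPM in vehicle granulosa libraries and 8.49, 6.64 and 6.52 CPM after BPS, and at most 0.36 CPM in any other library. Vehicle Sertoli libraries held 4, 3 and 0 reads of it, and the gene was called between the cultures (adjusted p = 4.73e-08). Col8a1, another short-chain network collagen, best known from the cornea and vessel walls, was at 195, 185 and 193 CPM in granulosa and 112, 121 and 113 CPM in Sertoli libraries. Its difference between the cultures was not called. It had no read in dose-series vehicle iPSCs. The 100 bases before the starts of Col10a1 (chr10:34389881-34389980) and Col3a1 (chr1:45311438-45311537), both on the plus strand, are given as those of a granulosa-restricted and a widely used stromal collagen, with TATAAA in capitals.
Col10a1: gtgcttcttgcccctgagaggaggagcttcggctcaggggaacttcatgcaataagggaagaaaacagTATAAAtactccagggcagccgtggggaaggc
Col3a1: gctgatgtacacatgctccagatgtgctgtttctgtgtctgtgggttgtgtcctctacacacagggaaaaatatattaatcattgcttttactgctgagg
In the Col10a1 window TATAAA stood 32 to 27 bases before the start, and the Col3a1 window held none of the 3 motifs.

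The beaded-filament chains of type VI, which anchor cells in connective tissue, were higher in granulosa cells. Col6a1 was at 173, 199.5 and 187 CPM there and 44.3, 24 and 23.4 CPM in Sertoli cells (-2.67 ± 0.38, adjusted p = 4.24e-06). The differences were -2.23 for Col6a2 and -1.99 for Col6a3. Within the Sertoli libraries these chains were uneven, with vehicle replicate 1 and BPS replicate 3 highest: Col6a1 was at 21.6, 22.5 and 37.9 CPM after BPS. The fibroblast proteoglycan Dcn was uneven in the same 2 libraries, at 22.5, 9.09 and 7.12 CPM in vehicle and 6.49, 7.96 and 14.1 CPM in BPS libraries, and Col3a1 was at 82.9, 86.7 and 116 CPM after BPS. The part of stromal cells in these values was not tested.

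Sertoli cells in turn were rich in Col18a1. It was at 493, 542 and 517 CPM in the Sertoli vehicle libraries and 9.39, 11.1 and 8.95 CPM in the granulosa libraries, the largest difference in favour of Sertoli cells among the 42 members (5.72 ± 0.06, adjusted p = 1.10e-22). The dose-series vehicle iPSCs stood between, at 113, 108 and 108 CPM, 4.71-fold below Sertoli cells and above granulosa cells (a granulosa minus iPSC difference of -3.48 ± 0.06). Its fellow multiplexin Col15a1 did not share this order, at 97.9, 78.4 and 83.7 CPM in Sertoli and 128, 139.5 and 131 CPM in granulosa cells. Among low members, Col9a3, a chain of the cartilage FACIT type IX, was at 22, 24.6 and 21.6 CPM in Sertoli and 1.24, 0.984 and 1.2 CPM in granulosa cells (4.29 ± 0.21), and Col28a1, known from peripheral nerve, was at 1.82, 1.49 and 1.16 CPM in Sertoli cells and at most 0.1 CPM outside them. The transmembrane collagen Col17a1, of hemidesmosomes, was at 1.26, 1.24 and 1.04 CPM in Sertoli and 0.353, 0.40 and 0.307 CPM in granulosa cells (1.66 ± 0.55). In the other direction Col26a1, a little-studied chain first described in testis and ovary, was at 1.62, 1.6 and 1.88 CPM in granulosa cells, against 0.371, 0.38 and 0 CPM in Sertoli cells. Among the members not yet described, Col16a1, a FACIT chain whose reads may be split with a suffixed row, was at 48.2 to 50.0 CPM in Sertoli and 60.9 to 70.5 CPM in granulosa cells, Col14a1, another FACIT chain, was at 5.62 CPM or less in every library, and Col11a2, also with suffixed rows, and Col8a2 stayed at or below 2.46 and 1.25 CPM.

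**Figure D3:**
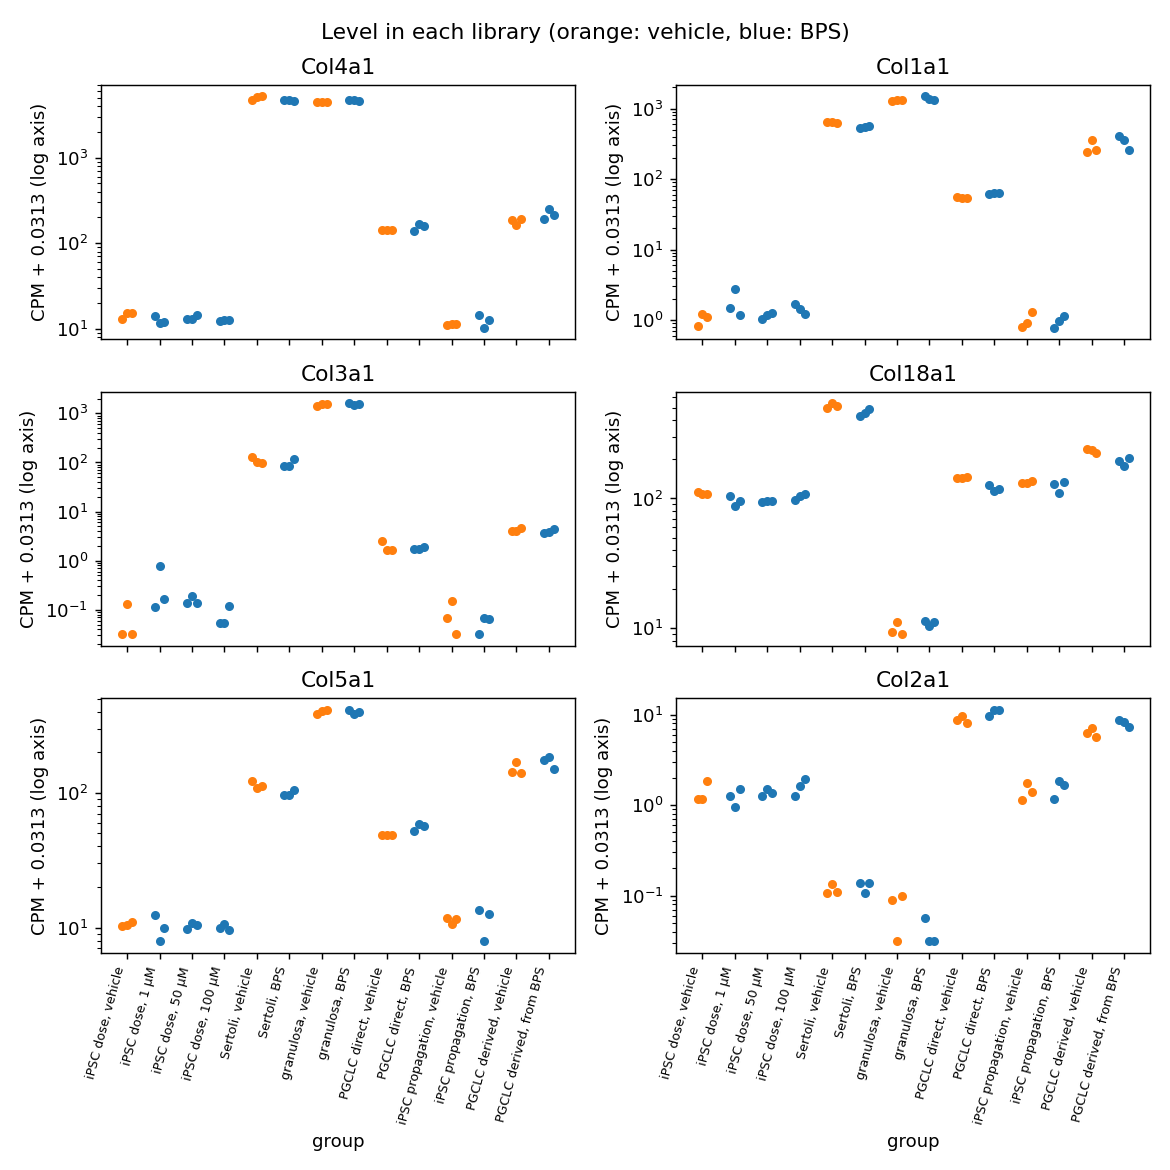
CPM (with 0.0313 added) of 6 collagens in each of the 42 libraries on a logarithmic axis, each point 1 library (n = 3 per group), vehicle in orange and BPS in blue. Vehicle granulosa libraries lie at 1423 to 1542 CPM for Col3a1 and vehicle Sertoli libraries at 97.8 to 128 CPM, whereas Col18a1 lies at 8.95 to 11.1 CPM in the former and 493 to 542 CPM in the latter.

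Markers of stromal cells were measured beside these levels. A list of 14 fibroblast or feeder markers, left without fibronectin (Fn1) because iPSCs held Fn1 at 1635 to 1756 CPM, summed to 1407 to 1488 CPM in vehicle Sertoli cells and 1483 to 1599 CPM in vehicle granulosa cells. Of 14 markers tested, fibronectin included, 12 were lower and 2 higher in Sertoli than in granulosa cells, beside 35.9% and 33.7% of all genes. Lum was at most 0.075 CPM in Sertoli libraries and at 17.5 to 24.4 CPM in granulosa libraries. A list of 7 smooth muscle or peritubular myoid markers, led by Acta2, summed to 1276 to 1404 CPM in Sertoli and 2349 to 2417 CPM in granulosa libraries. Gene by gene, 3 of these 7 were higher and 2 lower in Sertoli cells, with a median log2 difference of -0.0036. The 6 Leydig or theca markers summed to 193 to 199.5 and 1317 to 1470 CPM, with Cyp11a1 at 628 to 691 CPM in granulosa libraries. Of 5 of them tested, 0 were higher and 3 lower in Sertoli cells. Endothelial markers summed to 15.4 to 16 and 19.4 to 24.8 CPM, and macrophage markers to 9.63 to 12.1 and 18.5 to 22.4 CPM. Which cells made these transcripts, and the part of such cells in the collagen levels, was not tested.

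In iPSCs the type I and III collagens, abundant in fibroblasts, were near the floor. Col1a1 was at 0.785, 1.2 and 1.06 CPM and Col3a1 at 0, 0.0999 and 0 CPM in the dose-series vehicle libraries. Of the 14 fibroblast or feeder markers, which summed to 8.66 to 9.72 CPM in these vehicle libraries, 5 had a mean of 0.5 CPM or more, namely Fbln2 (1.94 to 2.57 CPM), Pdgfrb (1.97 to 2.46 CPM), Twist1 (1.28 to 2.2 CPM), Pdgfra (1.21 to 1.6 CPM) and Thy1 (0.666 to 1.24 CPM), and 7 had a mean under 0.1 CPM. Among the latter, Lum, Dcn, Postn and Prrx1 did not exceed 0.18 CPM in any iPSC library of that series, and Fap had no read. At 1 µM the 3 replicates held Col1a1 at 1.46, 2.69 and 1.16 CPM and Col3a1 at 0.081, 0.739 and 0.138 CPM, so replicate 2 had the most of both in the series, and its Postn was at 0.177 CPM, Dcn at 0.0591 CPM and Lum at 0.0296 CPM. Members that iPSCs did hold were Col11a1 at 15.3, 15.3 and 15.8 CPM, Col5a1, a chain of the type V collagen that nucleates fibrils, at 10.2, 10.5 and 10.9 CPM, and Col4a1 as above. Sertoli cells exceeded these iPSCs in 32 members and fell below them in 7, of 42 tested, beside 89.1% of all genes called (43.7% higher, 45.4% lower). Granulosa cells exceeded them in 31 and fell below them in 7, beside 88.4% (43% higher, 45.4% lower). Both comparisons share the same iPSC libraries. The largest rises in Sertoli cells were of Col4a5, Col4a6, Col8a1 and Col3a1, above, of Col12a1, a FACIT chain on type I fibrils, at 248, 269 and 256 CPM against 0.0357, 0 and 0.0731 CPM in iPSCs, and of Col15a1, at 0.0714, 0.0333 and 0 CPM in iPSCs. Those in granulosa cells were of Col3a1, Col8a1, Col12a1 (248, 251 and 249 CPM), Col4a5, Col6a1 and Col6a2, the last at 97.4, 116 and 116 CPM against 0, 0 and 0 CPM. The largest falls were of Col2a1, Col9a1, Col13a1, a transmembrane collagen, and Col6a5 in both, of Col26a1 and Col9a2 in Sertoli cells and of Col18a1 and Col17a1 in granulosa cells. Col2a1, the cartilage fibril collagen, was at 1.14, 1.13 and 1.83 CPM in iPSCs and 0.0742, 0.104 and 0.077 CPM in Sertoli cells (adjusted p = 9.02e-09).

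Genes that build and cut collagens were, for the most part, also higher in the somatic cultures than in iPSCs. Against dose-series iPSCs, 43.7% of all genes were higher and 45.4% lower in Sertoli cells, and 43% and 45.4% in granulosa cells. Of 24 genes of collagen biosynthesis, 22 were higher in Sertoli cells than in those iPSCs and none lower. In granulosa cells 22 were higher and 1 lower. Between the somatic cultures 8 were higher and 13 lower in Sertoli cells, beside 33.7% and 35.9% of all genes. Serpinh1, the collagen chaperone HSP47, was at 2212, 2277 and 2265 CPM in Sertoli cells, 3279, 3166 and 3248 CPM in granulosa cells and 145, 140.4 and 146 CPM in iPSCs. Of 12 tested genes of propeptide processing and cross-linking, 10 were higher and 1 lower in Sertoli cells than in iPSCs, and 10 higher and 2 lower in granulosa cells. Lox, which cross-links collagen fibrils, was at 732, 818 and 738 CPM in Sertoli, 513, 502 and 504 CPM in granulosa and 0.0714, 0 and 0 CPM in iPSC libraries. Of 9 collagen receptors, 9 were higher in Sertoli cells than in iPSCs, and 8 were higher and 1 lower in granulosa cells. Of 7 tested genes of breakdown and its inhibitors, 6 were higher in Sertoli cells, and 6 higher and 1 lower in granulosa cells.

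Vehicle PGCLCs held a set of collagens that were near 0 in Sertoli cells. Against Sertoli cells, 39 of 42 members were called in the direct vehicle PGCLCs, 10 higher and 29 lower, beside 87.4% of all genes (46.6% higher, 40.8% lower). Col2a1 was at 8.79, 9.56 and 8.04 CPM in PGCLCs and at most 0.11 CPM in vehicle Sertoli libraries, and Col9a2, of type IX, was at 8.4, 9.23 and 8.01 CPM. Col9a1 was at 2.62, 2.7 and 2.88 CPM and had no read in vehicle Sertoli or granulosa libraries. The other large rises were of Col26a1, at 4.48, 3.48 and 3.93 CPM, of Col25a1, a transmembrane collagen of neurons, at 2.1, 2.44 and 2.98 CPM, and of Col24a1, at 3.82, 4.21 and 4.51 CPM (4.15). The largest falls were of Col8a1, Col15a1, Col4a3, Col4a4, Col4a5 and Col6a3, each at 8.08 CPM or less in these PGCLCs. Col4a1 was at 142, 141 and 141 CPM, a PGCLC minus Sertoli difference of -5.14, and Col18a1 at 144, 144 and 147 CPM (-1.83).

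Between iPSCs and the PGCLCs made from them, the type I chain Col1a1 rose most, in cells that carry the cassette at this locus before and after differentiation. It was at 0.773, 0.881 and 1.26 CPM in the propagation vehicle iPSCs and 244, 359 and 257 CPM in derived PGCLCs (8.17 ± 0.15, adjusted p = 1.67e-18). Its partner Col1a2 reached 19.5, 26.1 and 21.4 CPM. In all, 34 of 42 members were higher and 2 lower in derived PGCLCs, beside 73.3% of all genes called (35.9% higher, 37.4% lower). Col4a5, Col6a3, Col12a1, Col6a1 and Col3a1 followed in size of rise, from 4 reads or fewer in any propagation vehicle iPSC library to 5.06 to 7.7 CPM for Col4a5 and 4.32 to 9.4 CPM for Col6a3. Col4a1 rose by 3.99, Col4a2 by 4.88, Col5a1 by 3.74 and Col18a1 by 0.82. The members that fell were Col5a3, a minor type V chain (-1.97), and Col11a1 (-0.48). Of 24 biosynthesis genes, 15 were higher and 7 lower.

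The PGCLCs of the 2 experiments, both from vehicle, were set side by side in a comparison added after the values were seen; experiment and differentiation run cannot be told apart in it. Col1a1 was at 55, 53.6 and 53.5 CPM in direct and 244, 359 and 257 CPM in derived vehicle PGCLCs, 5.22-fold apart (2.38 ± 0.15, adjusted p = 2.38e-09). Col6a3 was at 0.49, 0.161 and 0.245 CPM against 4.32, 9.4 and 5.2 CPM (4.30 ± 0.41, adjusted p = 2.11e-07). Of 42 members, 13 were higher and 4 lower in derived PGCLCs, beside 42.5% of all genes (22.7% higher, 19.9% lower). Col5a1 differed by 1.63, Col8a1 by 1.57, Col23a1, a transmembrane collagen, by 1.32 and Col7a1, the anchoring fibril collagen, by 1.17. Col22a1, a FACIT chain of muscle-tendon junctions, was at 3.43, 3.64 and 3.77 CPM in direct and 6.73, 10.5 and 5.48 CPM in derived PGCLCs. The falls were -0.95 for Col4a6, -0.66 for Col27a1 and -0.63 for Col11a1, and Col4a4 was at 0.525, 0.257 and 0.0614 CPM in direct and 0.0288, 0.164 and 0.0281 CPM in derived PGCLCs. The 14 fibroblast or feeder markers summed to 76.5 to 79 CPM in direct and 146 to 180.4 CPM in derived vehicle PGCLCs, and the smooth muscle list to 37.1 to 37.8 and 75.1 to 130.1 CPM. Primitive endoderm markers summed to 119.8 to 122 and 104 to 112 CPM, with 3 of 7 called higher and 2 lower in derived PGCLCs. Their part in the differences was not tested. With 0.25 or 1 CPM added before the log, 27 members were called.

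The dose series asked how iPSCs respond to rising BPS, and a few collagens changed at each dose. Of 22 members tested, 4 were called at 1 µM (2 higher, 2 lower, beside 8.54% of all genes, 5.61% higher and 2.94% lower), 7 at 50 µM (5 higher, 2 lower, beside 26.4%, 13.1% higher and 13.3% lower) and 5 at 100 µM (4 higher, 1 lower, beside 30.7%, 15.3% higher and 15.4% lower). The 3 doses share the same 3 vehicle libraries. At 50 and 100 µM the members' share was thus near that of all genes. Col11a1 was at 15.3, 15.3 and 15.8 CPM in vehicle, 19.8, 17.1 and 19.8 CPM at 1 µM, 19.7, 21.9 and 23.1 CPM at 50 µM and 23.5, 23.2 and 23.6 CPM at 100 µM. Every exposed library lay above every vehicle library, with differences of 0.28 ± 0.07 (limma adjusted p = 0.0175), 0.48 ± 0.07 (9.73e-05) and 0.60 ± 0.07 (8.97e-06). Col20a1, a FACIT chain, was at 4.61, 4.5 and 5.3 CPM in vehicle, 6.42, 5.68 and 6.38 CPM at 1 µM, 6.64, 6.26 and 7.86 CPM at 50 µM and 7.51, 7.56 and 7.57 CPM at 100 µM, also with no overlap (0.36, 0.52 and 0.65; adjusted p = 0.0335, 0.00103 and 1.22e-04).

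Col5a3 fell at every dose. It was at 4.21, 3.7 and 3.76 CPM in vehicle, 3.1, 1.89 and 2.27 CPM at 1 µM, 2.29, 2.15 and 1.99 CPM at 50 µM and 2.03, 2.26 and 2.18 CPM at 100 µM (-0.71 ± 0.16, -0.85 ± 0.16 and -0.84 ± 0.16; adjusted p = 0.00821, 6.14e-04 and 5.78e-04). Col5a2, the chain it can accompany in type V fibrils, was called higher at the upper 2 doses, at 1.89, 1.7 and 2.16 CPM in vehicle, 2.81, 2.85 and 2.71 CPM at 50 µM and 2.43, 2.62 and 2.71 CPM at 100 µM (0.54 and 0.43). Col7a1 was at 1.14, 1.4 and 1.9 CPM in vehicle, 2.12, 2.34 and 2.58 CPM at 50 µM and 3.08, 2.83 and 3.04 CPM at 100 µM, 2.04-fold up at the highest dose (1.02 ± 0.16, adjusted p = 1.59e-04). Col17a1 was called at 50 µM only (0.73 ± 0.17, adjusted p = 0.00342), which does not show that the other doses differed from it. Col18a1, the chief collagen of these cells, was at 113, 108 and 108 CPM in vehicle, 105, 87.2 and 96.3 CPM at 1 µM, 94.5, 95.2 and 95.3 CPM at 50 µM and 97.8, 105 and 109 CPM at 100 µM. It was called lower at 1 µM (-0.19 ± 0.06, adjusted p = 0.0475) and 50 µM (-0.21 ± 0.06, adjusted p = 0.0142) and not at 100 µM (-0.08, adjusted p = 0.323). All these members but Col11a1 and Col18a1 were low in iPSCs, and with a CPM of at least 5 required in 3 libraries 3 calls were left at 50 µM and 2 at 100 µM. At 1 µM 1 of the 4 calls was left once replicate 1 or replicate 2 of the vehicle was dropped, once replicate 3 at 1 µM was dropped (another member was then called), without the filter, with the 6 libraries alone, or with every library fitted together (where 4 others were called). Of 21 biosynthesis genes tested at 100 µM, 2 were higher and 5 lower, beside 15.3% and 15.4% of all genes. Among them were the prolyl hydroxylase subunits P4hb (-0.27) and P4ha1 (0.26) and the chaperone Serpinh1 (-0.23). The 14 fibroblast or feeder markers summed to 8.66 to 9.72 CPM in vehicle and 10.2 to 11.2 CPM at 100 µM, and their part in these values was not tested.

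**Figure D4:**
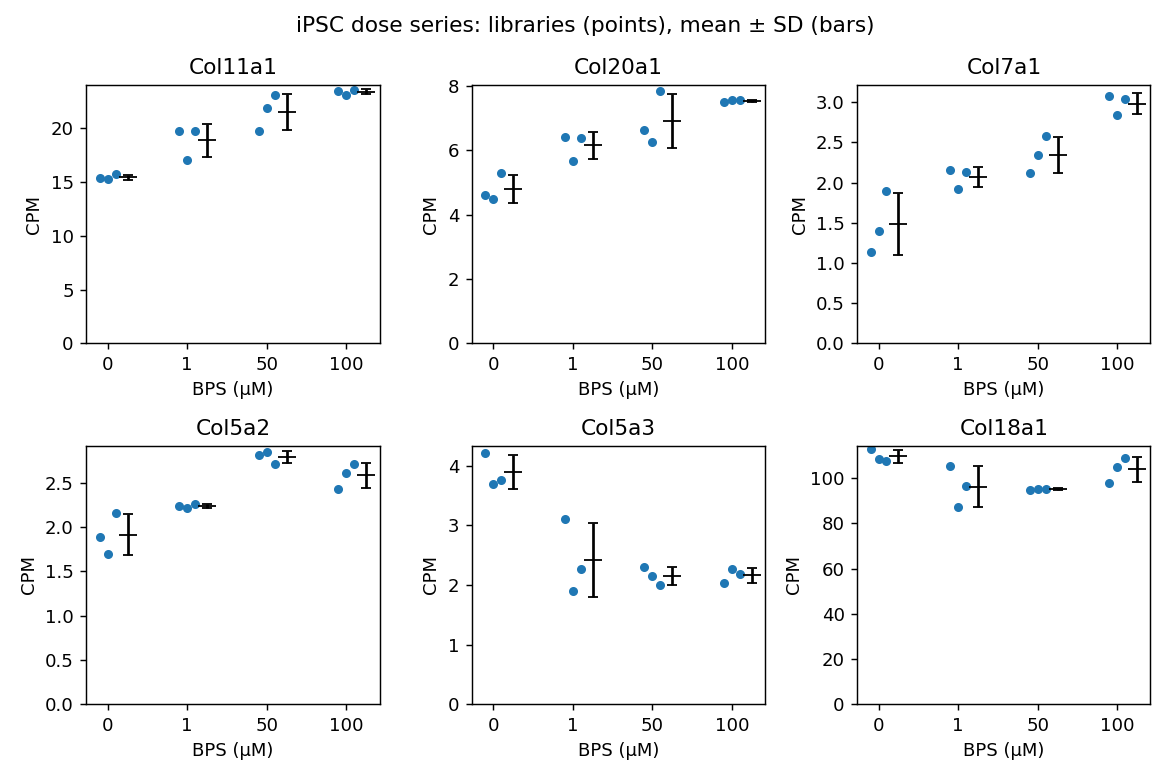
CPM of 6 collagens in dose-series iPSCs at 0, 1, 50 and 100 µM BPS, each point 1 library and each bar the mean with its SD (n = 3 per dose). Col11a1 climbs from about 15.5 in vehicle to 23.6 in the highest library at 100 µM, Col5a3 drops at 1 µM and stays low, and Col18a1 is lowest in a library at 1 µM.

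The 100 bases before the starts of Col11a1 (chr3:114030379-114030478, plus strand), Col7a1 (chr9:108953486-108953585, plus strand) and Col5a3 (chr9:20815118-20815217, minus strand) are given as those of 2 members that rose and 1 that fell, with GGGCGG and CCAAT, or their reverse complements CCGCCC and ATTGG, in capitals.
Col11a1: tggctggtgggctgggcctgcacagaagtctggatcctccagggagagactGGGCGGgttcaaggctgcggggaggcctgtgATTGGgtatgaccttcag
Col7a1: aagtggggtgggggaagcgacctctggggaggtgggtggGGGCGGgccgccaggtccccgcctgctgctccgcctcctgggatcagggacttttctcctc
Col5a3: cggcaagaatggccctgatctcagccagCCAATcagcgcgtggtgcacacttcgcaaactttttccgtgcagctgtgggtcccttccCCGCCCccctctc
GGGCGG was found in all 3 windows, against 22.6% of all windows and 10 of the 24 collagen windows. CCAAT was found in those of Col11a1 and Col5a3, against 19.9% of all windows and 7 of the 24. Of other members called in the dose series, the Col18a1 window held GGGCGG and the Col17a1 window did not. A match is a description of these letters and not of a binding site.

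In Sertoli cells 7 collagens of fibrillar, network and other types were lower after BPS at 1 µM. The collagen share of reads was 1.09 ± 0.0123% after BPS and 1.2 ± 0.0386% in vehicle (SD, n = 3), with no overlap between the 3 libraries of each. Of 31 members tested, 7 were called, all lower, beside 1.48% of all genes called lower and 5.24% called in either direction. In 28 of 31 the difference was below 0, with a median of -0.14 against 0.01 over all genes tested. Col1a1 was at 653, 634 and 621 CPM in vehicle and 532, 548 and 564 CPM after BPS (-0.22 ± 0.03, adjusted p = 0.00304). Col11a1 was at 94.6, 109 and 99.9 CPM and 79.7, 82.9 and 74 CPM (-0.36 ± 0.05, adjusted p = 0.0021). For both, every BPS library lay below every vehicle library. Col4a4 was at 58.2, 61.8 and 60.5 CPM and 52.5, 51.6 and 49.6 CPM (-0.23 ± 0.04, adjusted p = 0.00658).

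The other 4 called members were smaller changes or nearer the threshold. Col5a1 was at 122, 109 and 113 CPM in vehicle and 96.8, 96.2 and 105 CPM after BPS (-0.21, adjusted p = 0.0124), and Col18a1 at 493, 542 and 517 CPM against 429, 455 and 486 CPM (-0.18, adjusted p = 0.0187). The FACIT chain Col12a1 was at 248, 269 and 256 CPM against 232, 239 and 237 CPM (-0.13, adjusted p = 0.0349), and Col9a3 at 22, 24.6 and 21.6 CPM against 18.9, 18.3 and 20.4 CPM (-0.24, adjusted p = 0.0406). The most abundant member, Col4a1, was at 4729, 5075 and 5198 CPM against 4696, 4701 and 4659 CPM (-0.09 ± 0.04, adjusted p = 0.159), and did not pass the test. Of 23 biosynthesis genes 3 were lower and none higher, beside 1.48% and 3.76% of all genes. The lower ones were the prolyl 3-hydroxylase P3h1 (-0.15), the transcription factor Creb3l1 (-0.26) and the lysyl hydroxylase Plod2 (-0.13). Bmp1, which cuts procollagen ends, was lower (-0.18), its enhancer Pcolce2 higher (0.18), and the collagen uptake receptor Mrc2 lower (-0.33). Of 12 fibroblast markers tested 1, fibronectin, was lower, and the 14 without fibronectin summed to 1413 to 1465 CPM after BPS against 1407 to 1488 CPM in vehicle, while 1 of 7 smooth muscle markers was lower. Other marker lists had lower sums after BPS, with no overlap: germ cell markers at 15.9 to 18 CPM in vehicle and 10.1 to 13.2 CPM after BPS, Leydig or theca markers at 193 to 199.5 and 178 to 182 CPM, and primitive endoderm markers at 272 to 292 and 239.6 to 260.5 CPM. Called lower were 1 of 4 germ cell, 1 of 2 Leydig or theca, 1 of 4 primitive endoderm and 2 of 6 granulosa markers tested, and 0 of 7 Sertoli markers. The granulosa list shares Fshr and Amh with the Sertoli list. Which cells of the culture held these transcripts, and their part in the collagen values, was not tested. Without vehicle replicate 1 there were 13 calls, without vehicle replicate 2 there were 4 and without BPS replicate 1 or 2 there were 3, while no call was left without the filter on low values or with every library fitted together.

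In granulosa cells 2 collagens were called higher after BPS, in some of the fits run, and none was called lower. Of 34 members tested, 2 were called, both higher, beside 1.95% of all genes called higher, 0.656% called lower and 2.6% called in either direction. Col8a1 was at 195, 185 and 193 CPM in vehicle and 204, 215 and 207 CPM after BPS (0.13 ± 0.03, adjusted p = 0.0214), and Col26a1 at 1.62, 1.6 and 1.88 CPM against 2.62, 2.47 and 2.74 CPM (0.61 ± 0.15, adjusted p = 0.0357). Neither overlapped between groups, but no more than 1 call was left when any library was left out, and none with no filter on low values, with every library fitted together or with a replicate block. Col1a1 was at 1270, 1322 and 1342 CPM against 1481, 1365 and 1305 CPM and did not pass the test. None of 24 biosynthesis genes was called. The smooth muscle list summed to 2349 to 2417 CPM in vehicle and 2611 to 2729 CPM after BPS, with Acta2, Tagln and Actg2 called higher, and its part in these values was not tested.

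The response of the 2 somatic cultures was compared in 1 model. Of 37 members tested, 3 had a lower response in Sertoli than in granulosa cells, beside 0.733% of all genes with a lower response and 1.28% with a different one. They were Col4a4 (-0.35 ± 0.06, adjusted p = 0.00465), Col1a1 (-0.29 ± 0.05, adjusted p = 0.00975) and Col11a1 (-0.34 ± 0.07, adjusted p = 0.0157). Col4a4 in granulosa cells was at 90.7, 83.4 and 91.5 CPM in vehicle and 97.1, 98.9 and 92.4 CPM after BPS, and Col11a1 at 526, 505 and 512 CPM against 503, 541 and 485 CPM. In 35 of 37 members the difference of responses was below 0, with a median of -0.17 against -0.01 over all genes tested. The members share the same libraries, and this count of signs was not tested. Leaving out Sertoli vehicle replicate 1 gave 8 calls, vehicle replicate 3 gave 5 and BPS replicate 3 gave 6. A value of 0.25 or 1 CPM added before the log gave 5, a filter at 5 CPM gave 5 and limma-voom gave 6, whereas omitting the filter on low values or fitting every library together gave 0.

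**Figure D5:**
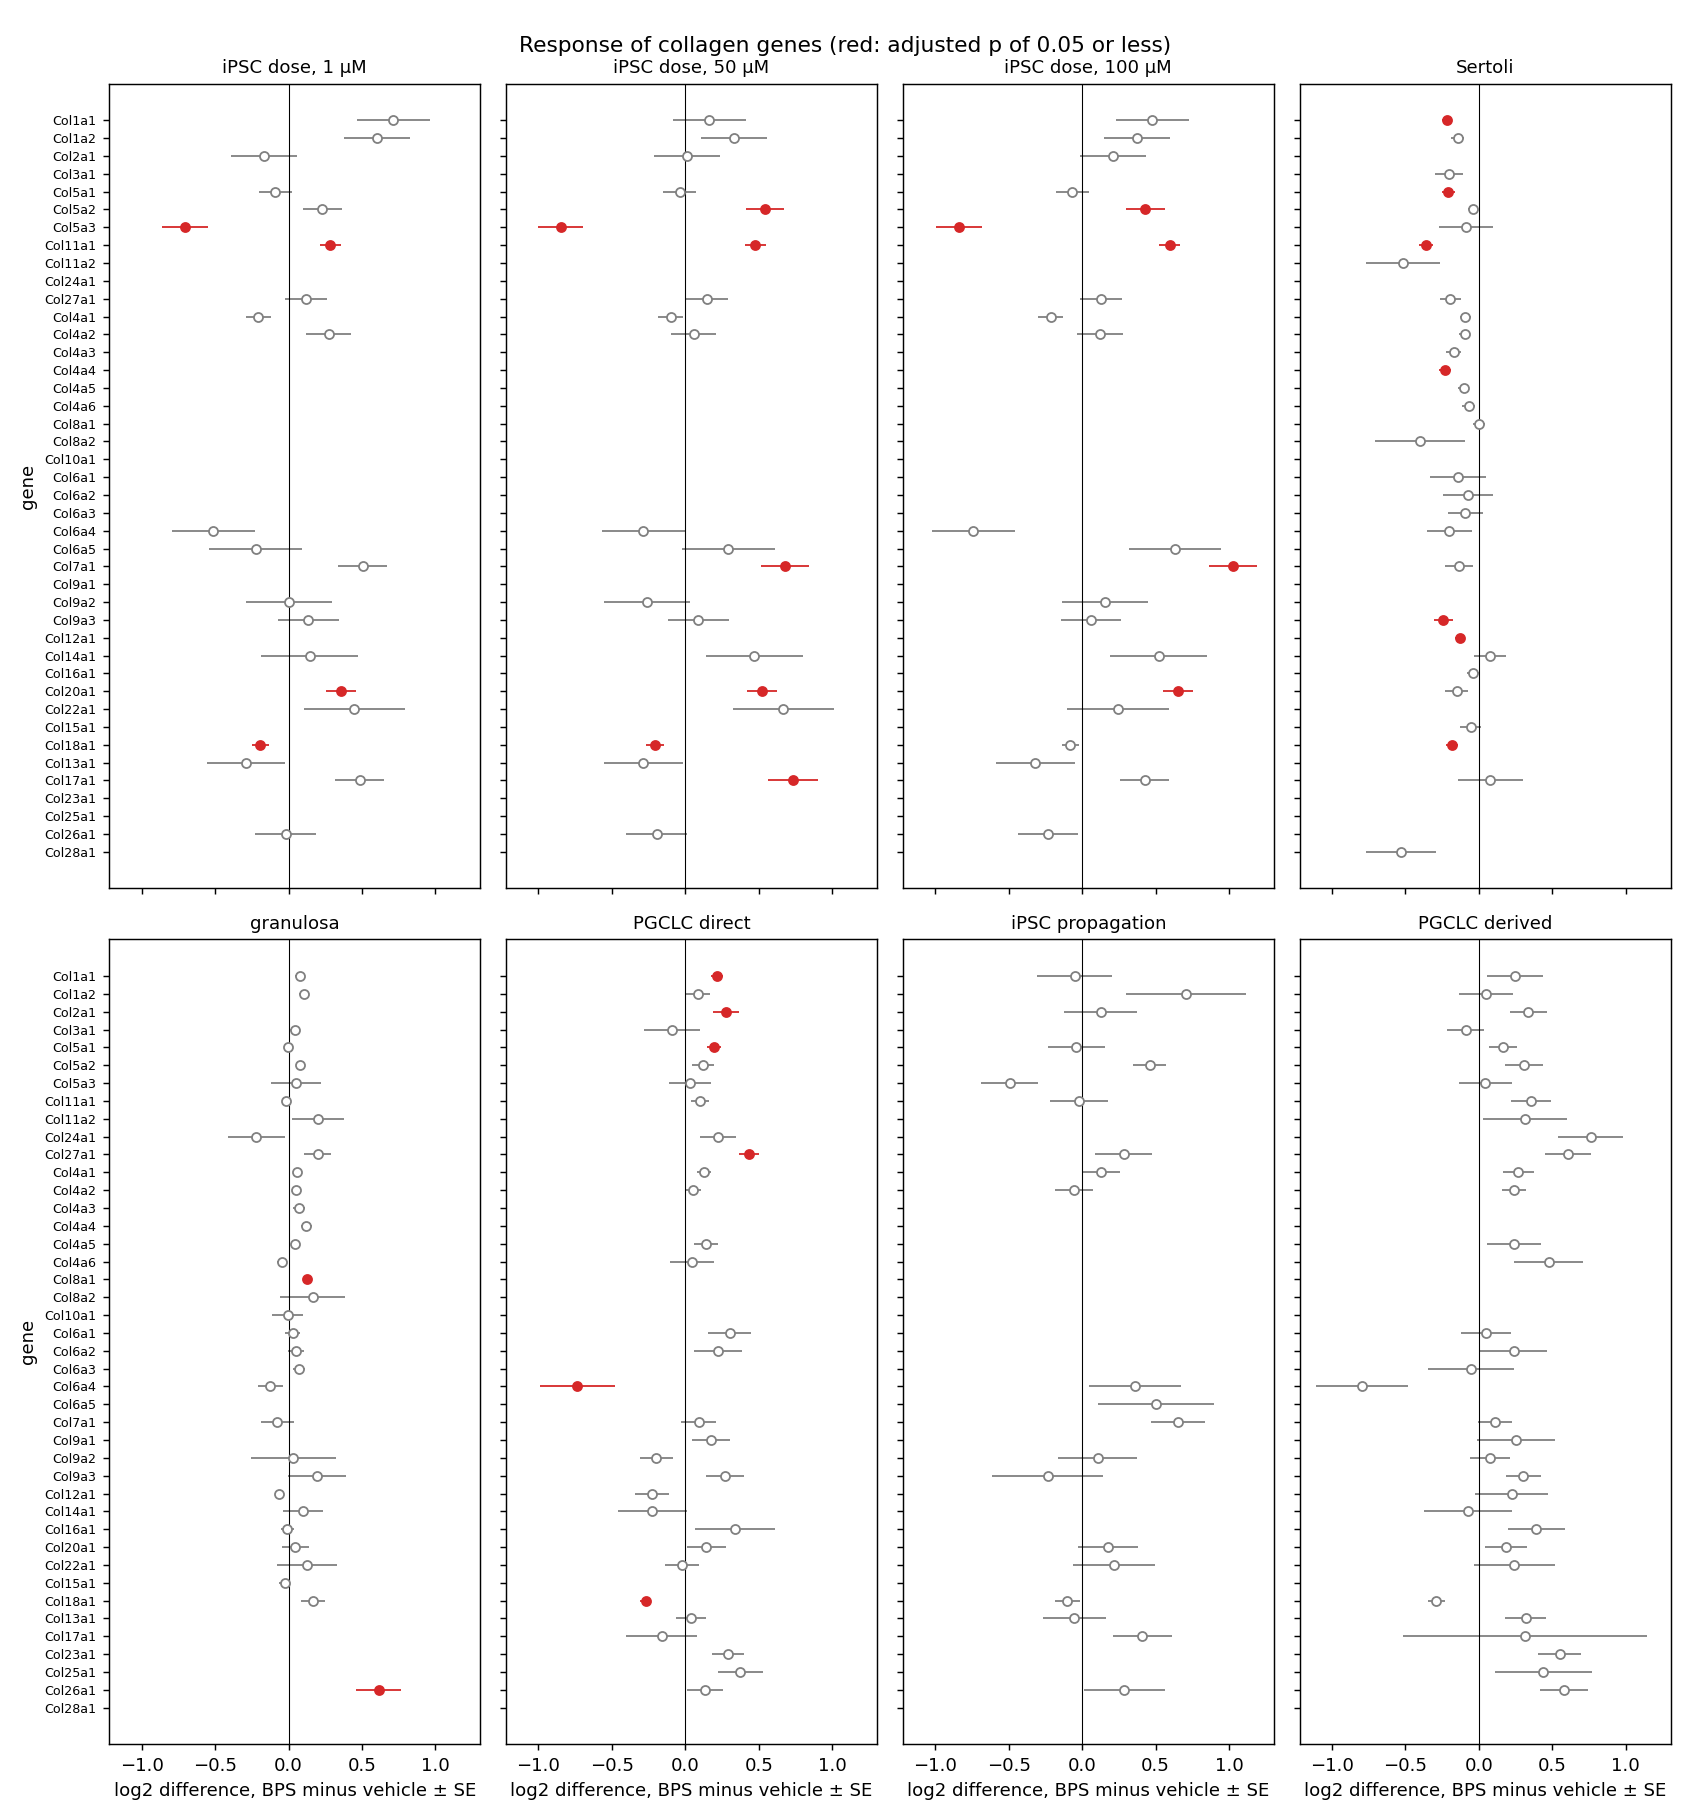
Log2 difference between BPS and vehicle for each tested collagen in each BPS comparison, with its SE and with called members (limma adjusted p of 0.05 or less) in red. In Sertoli cells the points lie mostly below 0, and Col18a1 is below 0 in every comparison but that of granulosa cells.

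In PGCLCs exposed directly to 1 µM BPS, 4 fibrillar collagens rose, and Col18a1 and Col6a4 fell. Of 32 members tested 6 were called, 4 higher and 2 lower, beside 26.6% of all genes (15.4% higher, 11.3% lower), so the members' share was under the background. Col18a1 was at 144, 144 and 147 CPM in vehicle and 127, 115 and 118 CPM after BPS (-0.27 ± 0.04, adjusted p = 9.32e-05). Col1a1 was at 55, 53.6 and 53.5 CPM against 60.7, 63.4 and 64.2 CPM (0.22 ± 0.04, adjusted p = 7.38e-04), and Col27a1, a fibrillar chain of cartilage, at 15.2, 15.3 and 14.9 CPM against 18.6, 22.2 and 20.6 CPM (0.43 ± 0.07, adjusted p = 2.34e-04). None of these 3 overlapped between groups. Col5a1 was at 48.7, 48.4 and 48.8 CPM against 51.9, 58.5 and 56.8 CPM (0.19, adjusted p = 0.00505), and Col2a1 at 8.79, 9.56 and 8.04 CPM against 9.58, 11.2 and 11.2 CPM (0.28, adjusted p = 0.0297). The beaded-filament chain Col6a4, at about 1 CPM, was lower (-0.73, adjusted p = 0.0468).

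Of 23 biosynthesis genes 6 were higher and 2 lower, beside 15.4% and 11.3% of all genes, with Serpinh1 at 0.25, P4ha1 at -0.33, Tmem38b, an endoplasmic reticulum channel needed for collagen maturation, at -0.45 and the chaperone Fkbp10 at 0.21. Of 6 tested genes of breakdown and its inhibitors 4 were higher, among them the gelatinase Mmp2 (0.37) and the inhibitor Timp2 (0.30). Cell-type markers differed between the same libraries: 6 of 6 pluripotency markers and 4 of 8 germ cell markers were lower, 4 of 10 fibroblast or feeder markers were higher, and 3 of 7 primitive endoderm markers were higher and 1 lower. The 14 fibroblast or feeder markers summed to 76.5 to 79 CPM in vehicle and 98.9 to 109 CPM after BPS. The part of these cells in the collagen values was not tested. Vehicle replicate 1 stood apart from its group. Its mean chi-square per gene was 40.95 and 38.16 against the other vehicle replicates, which differed by 2.02 from each other. Without it there were 4 collagen calls, and without BPS replicate 1 there were 11. Without the filter on low values there were 3, and with every library fitted together 1.

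The propagation experiment asked whether a response lasts from exposed iPSCs into the PGCLCs made from them. In the propagation iPSCs none of 21 members was called by limma, beside 0.0128% of all genes, and none by limma-voom. An unadjusted limma p under 0.05 was found for 3 of them, beside 1744 of all 15572 genes tested. BPS replicate 2 stood apart from its group: the mean chi-square per gene was 57.8 and 55.7 against the other BPS replicates, which differed by 5.94 from each other, and its collagen share of reads was 0.0159% against 0.0206% in both. Without it 1484 of 15392 genes were called and 1 of 20 members. Col5a3 was at 8.5, 7.93 and 6.76 CPM in vehicle and 6.32, 4.0 and 6.41 CPM after BPS (-0.49 ± 0.20, adjusted p = 0.435), Col5a2 at 2.72, 2.73 and 2.69 CPM against 3.73, 4.0 and 3.52 CPM, and Col18a1 at 133, 130.5 and 136 CPM against 129, 109.9 and 134 CPM. Col5a2 did not overlap between groups, whereas Col18a1 did. The responses at 1 µM in the 2 iPSC experiments were not shown to differ in any of 21 members (0% of all genes called, no member called by limma-voom). At an unadjusted limma p under 0.05 there were 0 members, beside 693 of all 16233 genes tested.

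In derived PGCLCs none of 34 members was called by limma, as no gene was (0%), and none by limma-voom. An unadjusted limma p under 0.05 was found for 12 of them, beside 2578 of all 16268 genes tested. The difference was above 0 in 29 of 34 members, with a median of 0.24 against 0.002 over all genes tested. The members share the same libraries, and this count of signs was not tested. Col18a1 was at 242, 236 and 225 CPM from vehicle iPSCs and 193, 178 and 205 CPM from exposed iPSCs (-0.29 ± 0.06, adjusted p = 0.194), lower in all 3 libraries though not past the threshold. Col1a1 was at 244, 359 and 257 CPM against 409, 357 and 257 CPM and overlapped. The 14 fibroblast or feeder markers summed to 146 to 180.4 CPM from vehicle and 156 to 220.5 CPM from exposed iPSCs. The responses of direct and derived PGCLCs were not shown to differ in any of 34 members (1.97% of all genes called, 0.852% with a higher and 1.12% with a lower response, no member called by limma-voom). At an unadjusted limma p under 0.05 there was 1 member, beside 2987 of all 16894 genes tested.

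Across the 8 comparisons of BPS with vehicle, Col18a1 was called in 4, lower each time: at 1 and 50 µM in dose-series iPSCs, in Sertoli cultures and in directly exposed PGCLCs. Its values at 1 µM side by side were -0.19 in dose-series iPSCs, -0.18 in Sertoli cells, -0.27 in direct PGCLCs, -0.10 in propagation iPSCs and 0.17 in granulosa cells, where the gene was lowest. Col11a1 was also called in 4, higher at all 3 doses in dose-series iPSCs and lower in Sertoli cells. The dose-series calls of both genes share the same 3 vehicle libraries, so they are not separate occurrences. The Col18a1 call in Sertoli cells was lost in some of the alternatives run.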

How the data were processed

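Strand-specific poly(A) libraries were made with a directional kit. The authors aligned reads to mm10 with Rsubread and normalised with edgeR (TMM); the submitters' processing notes name FastQC and edgeR with no versions, and for the annotation and the strand setting of the counting nothing is given in the sources used. The deposited values were log2 CPM per gene with 0.0313 CPM added before the log. CPM was recovered by reversing this, and whole reads by dividing by the value of 1 read, with at least 99.9% of values whole within 0.05 reads in every library. The floors given for genes with no read cover counting error only.

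Differences were tested with limma 3.58.1 (trended) in R 4.3.3 on the deposited log2 values, so fold changes are on that scale and understate low genes. Genes needed 0.5 CPM in at least 3 libraries of the fit. The dose series was fitted over 12 libraries, other BPS comparisons over 6, differences of response over 12 and the 6 vehicle groups over 18. P-values were adjusted by Benjamini-Hochberg over all genes of a fit, with a threshold of 0.05, and ± after a log2 difference is its SE. The scripts were tested on simulated data. Groups came from the sample titles, and replicate numbers were not found to pair samples. The table was used whole, with 0 unmatched columns. Symbols with a suffix, 5 of them collagens (1 copy of Col4a6, 1 of Col16a1 and 3 of Col11a2), were kept apart, so levels of these 3 genes are uncertain.

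The members and all lists (collagen biosynthesis, processing, receptors and breakdown; markers of other cell types) were chosen with earlier results of these data known. Genes named were the main chains of types I, III, IV, V, VI and XVIII, those with the highest level per kilobase in a class, every called member where no more than 10 were called and otherwise the 6 largest rises and falls, with up to 4 called members per list. Others named were chosen after their values were seen. Levels of single genes were compared with each other per kilobase of GENCODE M21 transcript. Shares of reads, by class or by gene, were not corrected for transcript length. Promoter sequences are from RefSeq (GRCm38.p6), 100 bases before the start, where 24 members had a window. Python 3.11.15 and pandas 2.3.3 were used. Alternatives were another value added before the log (0.25 or 1 CPM), no filter or a 5 CPM filter, rescaling by median ratios or upper quartile, a replicate block, other sets of libraries, limma-voom on recovered reads and leaving out each replicate.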

Additional observations from a re-analysis of the deposited data

Results flagged for a closer look

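The response to 1 µM BPS differed between Sertoli and granulosa cells in a test of the difference itself (limma, 12 libraries) for 3 collagens. The difference of log2 responses, Sertoli minus granulosa, was -0.35 for Col4a4 (adjusted p = 0.00465), -0.34 for Col11a1 (adjusted p = 0.0157) and -0.29 for Col1a1 (adjusted p = 0.00975). All 3 were lower after BPS in every Sertoli library, whereas in granulosa cells the BPS and vehicle libraries overlapped for Col11a1 and Col1a1 and did not for Col4a4.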

How the results depend on the processing

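No called collagen changed sign in the alternatives run, and most counts of calls stayed within 1.5 times the main count. With no filter on low values the calls were 1 at 1 µM in dose-series iPSCs, 0 in Sertoli cells, 0 in granulosa cells, 3 in direct PGCLCs and 0 for the difference of response between Sertoli and granulosa cells. With 5 CPM required they were 3 at 50 µM, 2 at 100 µM, 1 in granulosa cells and 5 for the difference of response. In 1 fit of all libraries they were 5 at 1 µM, of which 1 was among the 4 reported, 0 in Sertoli cells, 0 in granulosa cells, 1 in direct PGCLCs, 3 in propagation iPSCs, 3 in derived PGCLCs and 0 for the difference of response. Limma-voom gave 2 at 1 µM and 6 for the difference of response, and a fit of only the 6 libraries compared gave 1 at 1 µM. Either rescaling left 1 in granulosa cells. With 0.25 or 1 CPM added, derived against direct PGCLCs gave 27 and the difference of response gave 5. The cause was not tested. Median-ratio factors were 0.972 to 1.04 and moved 29 of 588 group levels by over 1 SD, and upper-quartile factors of 0.9 to 1.07 moved 90.

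Leaving out 1 replicate gave 1 to 5 calls at 1 µM, 6 to 8 at 50 µM, 4 to 6 at 100 µM, 3 to 13 in Sertoli cells, 0 to 1 in granulosa cells, 4 to 11 in direct PGCLCs, 0 to 1 in propagation iPSCs (1 without BPS replicate 2, where 1484 genes were called against 2) and 0 in derived PGCLCs. It gave 23 to 25 for Sertoli against granulosa cells, 35 to 39 and 37 to 38 for these against iPSCs, 36 to 37 for derived PGCLCs against iPSCs, 37 to 39 for direct PGCLCs against Sertoli cells and 14 to 18 for derived against direct PGCLCs. The difference of response gave 2 to 8 between somatic cultures, 0 between iPSC experiments and 0 to 1 between PGCLC experiments. At 1 µM 1 of the 4 reported calls was left once replicate 1 or 2 of the vehicle, or replicate 3 at 1 µM, was dropped. In Sertoli cells Col1a1, Col11a1 and Col4a4 were called without any 1 replicate, whereas Col5a1, Col9a3, Col12a1 and Col18a1 each lost the call without at least 1.

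Same-numbered replicates did not deviate together in every pair of any comparison (correlations from -0.4014 to 0.1825), so the numbers were not taken to pair samples. With the replicate block the calls were 3, 7 and 6 at the 3 doses, 10 in Sertoli cells, 0 in granulosa cells, 7 in direct PGCLCs, 0 in propagation iPSCs and 0 in derived PGCLCs, 26 for Sertoli against granulosa cells, 39, 38, 36 and 39 for the other cell-type comparisons, 18 for derived against direct PGCLCs, and 3, 0 and 0 for the differences of response.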
